A study of Mus musculus with 3 samples.

Results

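Genes that mark DNA replication and cell division were followed in the embryonic thymus of 3 mouse genotypes by single-cell RNA sequencing. The set was a fixed list of 45 of the 27998 genes in the count files. It holds 23 genes of mitosis and its preparation, 15 genes of S phase and 7 regulators of entry into the cycle. They were chosen as textbook members of these groups, with earlier results of these data known. The samples were C57BL/6 thymic lobes at gestational day 13 to 13.5, digested with trypsin and captured in droplets, with 1 library per genotype. WT was the wild type control. The library labelled Tbx1neo2/neo2 came from embryos homozygous for the neo2 allele of Tbx1, a hypomorphic allele that lowers Tbx1 in all cells that use the gene, as a model of 22q11.2 deletion syndrome with a small thymus. The Foxn11089/1089 library came from embryos homozygous for a small in-frame deletion in Foxn1, the transcription factor that thymic epithelium needs, and it served as a second hypoplastic thymus. Each mutant library was set against the same WT library, so the 2 comparisons share their control and are given side by side. The number of embryos behind a library is not given in the sources used here.

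A dividing cell copies its DNA in S phase and separates the copies in mitosis. The Mcm2 to Mcm7 proteins form the helicase that opens DNA for copying, Pcna is the clamp that holds the polymerase, and Rrm1, Rrm2 and Tyms make the nucleotides. In mitosis Cdk1 acts with cyclins B1 and B2, Top2a untangles the chromosomes, Plk1, Aurka and Aurkb are kinases of the spindle and chromosomes, and Cdc20 and Ube2c take part in the degradation of cyclin B that ends it. D cyclins (Ccnd1, Ccnd2, Ccnd3) link growth signals to entry into the cycle, E cyclins (Ccne1, Ccne2) act at the start of S phase, and the inhibitors p21 (Cdkn1a) and p27 (Cdkn1b) restrain the cyclin-dependent kinases. At this stage of thymus development the epithelial and mesenchymal cells of the lobes are known to divide while the first hematopoietic cells arrive.

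The promoters of the member genes hold 3 short sequences that are known from cell cycle genes, and the following stretches are shown because they set the mitotic apart from the S-phase members. They are the CHR element (TTTGAA) with CCAAT boxes, known from genes used late in the cycle, and E2F sites (TTTCCCGC, TTTGGCGC or TTTCGCGC), known from genes of S phase. Sequences and starts are RefSeq's on GRCm38.p6, each printed 5′ to 3′ along the gene, and capitals mark a match on either strand (CCAAT reads ATTGG and TTTGAA reads TTCAAA on the other). The mitotic genes Cdc20, Plk1, Ccnb2 and Hmmr each have a CHR and at least 1 CCAAT box. The replication genes Mcm5 and Mcm6 have E2F matches and no CHR, and the E2F matches that open each stretch overlap one another.
Cdc20 (chr4:118437324-118437416, minus strand): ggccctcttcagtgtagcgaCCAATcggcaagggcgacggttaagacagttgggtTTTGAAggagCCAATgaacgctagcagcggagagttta
Plk1 (chr7:122159365-122159484, plus strand): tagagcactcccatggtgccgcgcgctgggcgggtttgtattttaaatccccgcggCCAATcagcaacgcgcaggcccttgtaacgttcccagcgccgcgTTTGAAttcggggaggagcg
Ccnb2 (chr9:70421525-70421741, minus strand): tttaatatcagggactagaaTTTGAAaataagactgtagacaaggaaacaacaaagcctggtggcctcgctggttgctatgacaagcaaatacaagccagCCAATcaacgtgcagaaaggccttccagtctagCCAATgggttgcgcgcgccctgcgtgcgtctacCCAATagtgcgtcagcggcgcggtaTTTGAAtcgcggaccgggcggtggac
Hmmr (chr11:40733404-40733629, minus strand): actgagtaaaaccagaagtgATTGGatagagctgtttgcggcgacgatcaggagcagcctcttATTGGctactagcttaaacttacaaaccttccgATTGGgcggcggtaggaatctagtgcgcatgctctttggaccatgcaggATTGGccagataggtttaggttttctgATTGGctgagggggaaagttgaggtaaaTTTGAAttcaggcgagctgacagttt
Mcm5 (chr8:75109336-75109539, plus strand): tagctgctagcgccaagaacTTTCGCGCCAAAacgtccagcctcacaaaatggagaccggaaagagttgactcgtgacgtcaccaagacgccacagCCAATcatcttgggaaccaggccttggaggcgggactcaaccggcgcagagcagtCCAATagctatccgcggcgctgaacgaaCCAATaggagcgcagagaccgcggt
Mcm6 (chr1:128359686-128359835, minus strand): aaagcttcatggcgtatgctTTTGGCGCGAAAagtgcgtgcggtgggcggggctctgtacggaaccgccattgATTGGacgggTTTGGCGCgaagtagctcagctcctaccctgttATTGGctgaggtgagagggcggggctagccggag

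Windows from 250 bases before to 50 after the start were found for 36 of the 45 members. A gene counted as a match where any of its windows held the letters. A CHR was present in 14 of 19 mitotic members (73.7%), in 2 of 13 S-phase members (15.4%) and in 0 of 4 regulators, against 20.2% of all 27025 genes with a window. A CHR together with a CCAAT box was present in the same 73.7% and 15.4%, against 7.97% of all genes. CCAAT alone did not separate the groups, being present in 89.5% of the mitotic and 84.6% of the S-phase members against 41.1% of all genes. An E2F sequence was present in 1 of 19 mitotic members (5.26%) and 6 of 13 S-phase members (46.2%), against 2.12% of all genes. These are matches of letters in a window and not measured binding.

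The 3 libraries held 6410, 5759 and 12447 cell barcodes with 82936619, 137498422 and 204655055 UMIs (unique molecular identifiers, each marking 1 captured RNA molecule), in the order WT, Tbx1neo2/neo2, Foxn11089/1089 that is kept wherever 3 values follow one another. After filters 5932, 5516 and 11772 cells were kept. Tbx1 itself was at 1.39, 4.81 and 5.43 counts per 1000000 UMIs (CPM) over the kept cells, so it was not lower under its own mutant label, and the name "library labelled Tbx1neo2/neo2" is kept for that reason. Foxn1 was at 38.4, 34.6 and 76.5 CPM, which does not check its label because a small deletion need not lower the count. The Tbx1neo2/neo2-labelled library was the deepest per cell, with a median of 43495 UMIs in epithelial cells against 16797 in WT and 20391 in Foxn11089/1089. Each cell was therefore thinned at random to 2000 UMIs, and the 10.3%, 28.3% and 12.4% of kept cells below that depth were left out. Mitochondrial UMIs had medians of 2.53 to 3.14% in the WT classes and 5.02 to 7.30% in the mutant ones. Pairs of libraries shared 17, 18 and 28 barcodes.

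Cells were put in a class by the presence of UMIs of exactly 1 of Epcam (epithelial), Pdgfra (mesenchymal), Cdh5 (endothelial) and Ptprc (hematopoietic) after thinning. This gave 1422, 594 and 3529 epithelial cells, 451, 670 and 1255 mesenchymal cells, 38, 86 and 81 endothelial cells, and 255, 121 and 157 hematopoietic cells. Of the 5320, 3954 and 10309 thinned cells, 3133, 2461 and 5171 held none of the 4 markers and were in no class. A further 21, 22 and 116 held several markers. Shares and cell mixes of a class below are thus those of the cells in which its marker was drawn. Other markers of the own class (such as Krt8 and Krt18, Col1a1 and Col3a1, Pecam1 and Kdr, or Coro1a and Laptm5) were present in 89.5 to 99.6% of the cells of every class and library. Markers of the hematopoietic list were present in 22.7%, 17.8% and 10.3% of epithelial cells. Markers of the mesenchymal list were present in 7.38%, 16.7% and 16.5% of epithelial, 15.8%, 29.1% and 13.6% of endothelial and 2.75%, 15.7% and 11.5% of hematopoietic cells, so they were more frequent in the epithelial and hematopoietic cells of both mutant libraries than in those of WT. The part of these markers of other classes in the results was not tested. Cells with at least 20% globin UMIs made up 3.18 to 3.77% of each Foxn11089/1089 class.

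Within a class, the mitotic UMIs did not spread evenly over cells but gathered in some of them. Of the mesenchymal cells, 58.1% in WT, 55.2% in Tbx1neo2/neo2 and 50.6% in Foxn11089/1089 had no mitotic UMI among their 2000. Of the epithelial cells, 20.8%, 22.1% and 32.1% had none. The cells with at least 5 mitotic UMIs had a median of 7 to 13 of them across the classes, and single cells reached 47. S-phase UMIs were sparser, with a median of 6 to 7.5 in cells with at least 5 and at most 15 in a cell. A cell with at least 5 UMIs of a group is called high for that group below, which is a cut through a range. Of the epithelial cells, 16.8 to 25.0% lay at 3 to 6 mitotic UMIs and 28.8 to 39.6% at 3 to 6 S-phase UMIs, which makes the S-phase share the more sensitive to the cut.

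**Figure D1:**
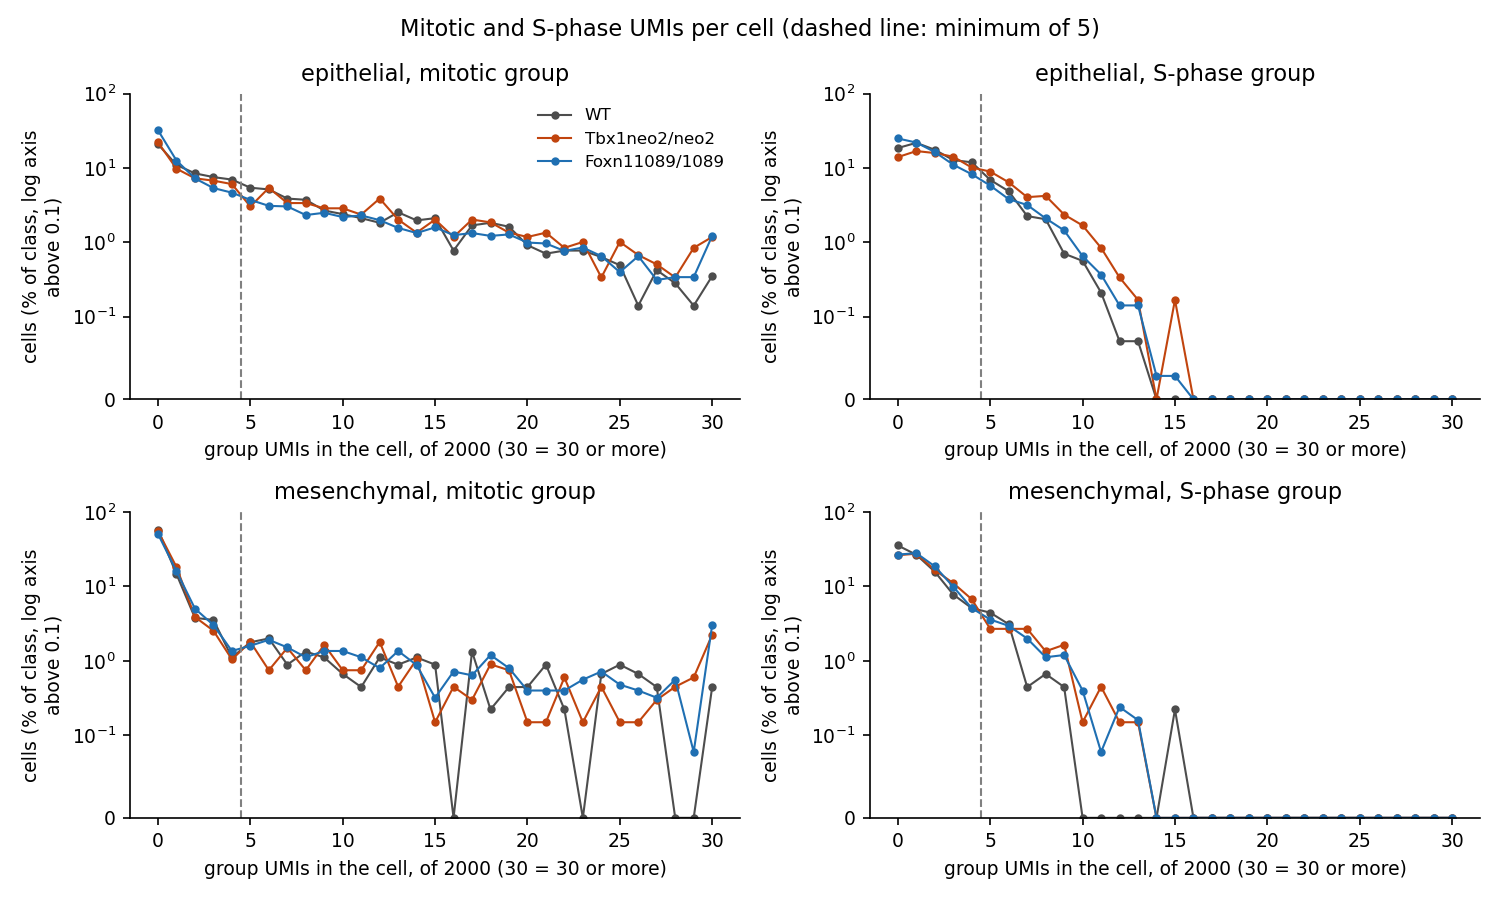
Share of epithelial (top) and mesenchymal (bottom) cells, in percent on a log axis above 0.1, with each number of mitotic (left) or S-phase (right) UMIs of 2000, in WT (grey), Tbx1neo2/neo2 (red) and Foxn11089/1089 (blue), with 30 standing for 30 or more. The mitotic counts have a long tail to the right of the cut at 5 (dashed), while the S-phase counts end at 15 and cross it with no gap.

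Cells with at least 50% globin UMIs, as in maturing red blood cells, served as a low reference. Mitotic-high cells made up 0.301% of 332 such cells in WT, 1.11% of 359 in Tbx1neo2/neo2 and 1.18% of 2041 in Foxn11089/1089. S-phase-high cells were 0 of 332, which allows a share of up to 0.904%, 0 of 359, which allows up to 0.836%, and 0.0490% of 2041. Every class below lay above this reference in every library. In the 4 classes of every library, cells high for a group were deeper before thinning than the others, for example 20027.5 against 15088 UMIs at the median for mitotic-high and other WT epithelial cells. Among globin-rich cells of the mutant libraries the few mitotic-high cells were the shallower ones.

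Mitotic-high cells were more frequent among epithelial than among mesenchymal cells in each library. Mitotic-high cells were 45.3% of the epithelial cells in WT (95% interval 42.7 to 47.9%), 48.1% in Tbx1neo2/neo2 (44.1 to 52.3%) and 38.1% in Foxn11089/1089 (36.5 to 39.8%). They were 18.8% (15.3 to 22.8%), 19.1% (16.2 to 22.3%) and 24% (21.6 to 26.4%) of the mesenchymal cells. Within a library, the epithelial share was 2.40, 2.52 and 1.59 times the mesenchymal one, and each interval of this ratio lay above 1. All intervals of shares are exact binomial ones, those of sums Poisson and those of ratios conditional binomial. They cover counting error only, and those of summed UMIs are too narrow where the UMIs of a group gather in few cells. Each genotype had 1 library, so no replicate error exists and nothing was tested.

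S-phase-high cells were also more frequent among epithelial than among mesenchymal cells. They were 17.7% (15.7 to 19.7%), 29.1% (25.5 to 33.0%) and 17.7% (16.4 to 19.0%) of epithelial cells, and 9.31% (6.79 to 12.4%), 11.9% (9.58 to 14.6%) and 11.7% (9.99 to 13.6%) of mesenchymal cells. The epithelial share was 1.90, 2.44 and 1.51 times the mesenchymal one. Hematopoietic cells had mitotic-high shares of 40.4%, 36.4% and 33.1% and S-phase-high shares of 21.6%, 44.6% and 22.9%, both above the mesenchymal shares in 3 of 3 libraries. The epithelial mitotic share was 1.12, 1.32 and 1.15 times the hematopoietic one, with 1 inside each interval. The few endothelial cells had mitotic-high shares of 34.2% (19.6 to 51.4%), 17.4% (10.1 to 27.1%) and 37.0% (26.6 to 48.5%).

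Without thinning the same cut took in more cells. The unthinned mitotic-high shares were 80.1%, 85.2% and 68.3% of epithelial and 29.0%, 47% and 41.1% of mesenchymal cells. The unthinned S-phase-high shares of mesenchymal cells were 50.8%, 90% and 74.7%, the highest in the deepest library.

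**Figure D2:**
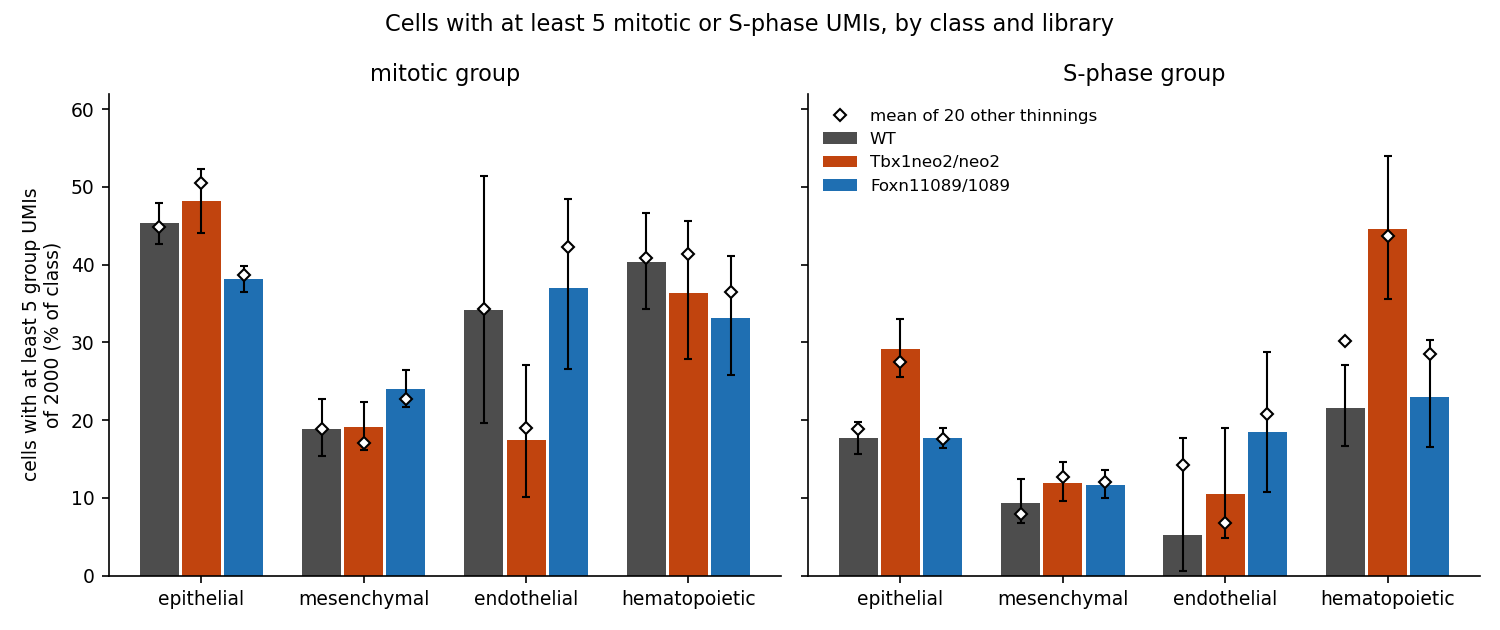
Cells with at least 5 mitotic (left) or S-phase (right) UMIs of 2000, in percent of each class, with bars for WT (grey), Tbx1neo2/neo2 (red) and Foxn11089/1089 (blue), lines for the 95% binomial interval and diamonds for the mean of 20 other random thinnings. Mesenchymal bars, at 18.8 to 24% and 9.31 to 11.9%, are below the epithelial ones in each library, and the hematopoietic WT S-phase bar lies under its diamond.

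In epithelial cells, the Tbx1neo2/neo2-labelled library had more S-phase-high cells than WT, and its share of mitotic-high cells differed from WT by less than counting error. The S-phase share was 1.65 times that of WT (1.35 to 2.01), with a mean of 1.46 over 20 other thinnings (1.19 to 1.64, above 1 in 20 of 20). Over 12 alternatives it ran from 1.26 to 2.67, a limit of 10% mitochondrial UMIs included. None of these alternatives set the share against the median of all genes. The summed S-phase level, at a log2 ratio of 0.39, fell to 0.11 when centred on that median. The mitotic share was 1.06 times that of WT (0.922 to 1.22), with a mean of 1.13 over the thinnings (1.06 to 1.23, above 1 in 20 of 20) and 0.991 to 1.18 over the alternatives. In the Foxn11089/1089 library the order was different. Its mitotic share was 0.842 times that of WT (0.766 to 0.927) and lay below 1 in 20 of 20 thinnings (mean 0.860), while its S-phase share was 1.0 times that of WT (0.862 to 1.16), with a thinning mean of 0.927 (below 1 in 19 of 20).

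Epithelial cells are a mixture, so the shares were also taken within subsets defined by at least 2 UMIs of a marker list (such as Psmb11, Prss16 and Ccl25 for cortical-like cells, or Pth and Gcm2 for parathyroid-like cells). Cortical-like cells were 53.4%, 52.9% and 30.1% of the epithelial cells, parathyroid-like cells 1.34%, 0% and 8.10%, and thyroid-like cells 0.281%, 6.57% and 0.0850%. Among cortical-like cells, S-phase-high cells were 16.4%, 28.3% and 14.0%, a ratio of 1.72 for Tbx1neo2/neo2 over WT (1.30 to 2.28). Their mitotic-high share was 44.5%, 43.6% and 34.6%, a ratio of 0.778 for Foxn11089/1089 over WT (0.67 to 0.905). Epithelial cells in no subset had an S-phase ratio of 1.42 for Tbx1neo2/neo2 (1.03 to 1.96) and a mitotic ratio of 0.872 for Foxn11089/1089 (0.757 to 1.01). The 286 parathyroid-like cells of the Foxn11089/1089 library were mitotic-high in 35.3% and S-phase-high in 15.7%, and its 230 medullary-like cells in 31.3% and 15.7%. The lower mitotic share of Foxn11089/1089 and the higher S-phase share of Tbx1neo2/neo2 were also present among the cells called cortical-like. This subset was called by marker genes whose own levels may change in a Foxn1 mutant. It held 53.4% of the WT but 30.1% of the Foxn11089/1089 epithelial cells, so it need not hold like cells in both. The part of the cell mix in the lower mitotic share was therefore not tested. The cortical-like mitotic ratio of Tbx1neo2/neo2 was 0.981 (0.798 to 1.2) and the S-phase ratio of Foxn11089/1089 0.852 (0.667 to 1.09), each with 1 inside its interval.

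In mesenchymal cells, the mitotic-high share of Foxn11089/1089 and the S-phase-high shares of both mutant libraries lay above WT, but not beyond counting error. The mitotic share was 1.27 times that of WT (0.997 to 1.64) in Foxn11089/1089, with a mean of 1.2 over 20 thinnings (1.02 to 1.44, above 1 in 20 of 20). In Tbx1neo2/neo2 it was 1.01 times (0.765 to 1.35), with a thinning mean of 0.904 (0.764 to 1.27, above 1 in 2 of 20). The S-phase ratio was 1.28 in Tbx1neo2/neo2 (0.872 to 1.91) and 1.26 in Foxn11089/1089 (0.887 to 1.82), with thinning means of 1.61 and 1.53 and all 20 thinnings above 1 for each. Of the 451 WT mesenchymal cells 42 were S-phase-high, so the interval of each single ratio takes in 1. The thinnings, here and in the other classes, redraw UMIs from the same sequenced cells. Their agreement in direction does not measure the error of sampling cells. Cells with at least 2 UMIs of pericyte and smooth muscle genes (Rgs5, Acta2, Tagln, Myl9, Actg2) were mitotic-high in 12.7%, 16.4% and 23%, and the other mesenchymal cells in 19.7%, 19.7% and 24.1%.

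Among hematopoietic cells, the S-phase share of the Tbx1neo2/neo2-labelled library was 2.07 times that of WT (1.39 to 3.07). This value depends on the draw of UMIs, since the WT share of 21.6% lay below all 20 other thinnings (24.1 to 34.0%, mean 30.1%), and the mean ratio over them was 1.45 (1.11 to 1.84, above 1 in 20 of 20). The mix of cells also differed, with cells marked by lymphoid genes (Cd3g, Lck, Tcf7 and others) at 20%, 32.2% and 8.28% and cells marked by myeloid genes (C1qa, Csf1r and others) at 33.3%, 23.1% and 46.5%. S-phase-high cells were 37.3%, 56.4% and 38.5% of the lymphoid and 10.6%, 25% and 16.4% of the myeloid cells. The part of the mix in the ratio was not tested. The mitotic ratio was 0.90 (0.618 to 1.29) in Tbx1neo2/neo2, with a thinning mean of 1.01 (above 1 in 14 of 20), and 0.820 (0.576 to 1.16) in Foxn11089/1089, with a mean of 0.893 (above 1 in 1 of 20). The S-phase ratio of Foxn11089/1089 was 1.06 (0.678 to 1.65), with a mean of 0.947 (above 1 in 7 of 20). The first and the last of these directions turned with the draw.

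The 38 WT endothelial cells limit what can be said of that class. The mitotic ratio was 0.510 in Tbx1neo2/neo2 (0.226 to 1.16), below 1 in 20 of 20 thinnings, and 1.08 in Foxn11089/1089 (0.548 to 2.26), above 1 in 18 of 20. The S-phase ratio was 1.99 in Tbx1neo2/neo2 (0.412 to 18.9) but 0.473 as a mean over the thinnings, which turned its direction. For Foxn11089/1089 it was 3.52 (0.818 to 31.7), with a thinning mean of 1.46. No direction of the endothelial S-phase share is read from these cells.

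A cell can be high for both groups. Both applied to 5.63%, 13% and 6.66% of epithelial cells. Among mitotic-high epithelial cells, 12.4%, 26.9% and 17.5% were also S-phase-high, against 22.0%, 31.2% and 17.8% of the other epithelial cells. The epithelial shares were nearly equal in Foxn11089/1089. In mesenchymal cells, 25.9%, 27.3% and 20.9% of the mitotic-high cells were also S-phase-high, against 5.46%, 8.30% and 8.81% of the others. There the mitotic-high cells had the higher share in each library. Cells high for neither group were 42.7%, 35.7% and 50.9% of epithelial and 76.7%, 74.2% and 69.3% of mesenchymal cells.

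Member by member, ratios were taken on the summed UMIs of the thinned cells, for each gene whose UMIs in both libraries of a comparison came to 30 or more, and a gene at least 1.5-fold apart is called higher or lower. The median log2 ratio of all counted genes was not 0. It was 0.28 (Tbx1neo2/neo2) and 0.18 (Foxn11089/1089) in epithelial cells, 0.26 and 0.16 in mesenchymal cells, -0.01 and 0.04 in endothelial cells and 0.08 and 0.03 in hematopoietic cells. Counts of members are therefore given as measured and then relative to that median.

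In epithelial cells of the Tbx1neo2/neo2-labelled library, 17 of 45 members were higher and 2 lower than in WT, beside 30.8% and 10.9% of the 8734 counted genes. Relative to the all-gene median, 9 were higher and 3 lower, beside 16.3% and 20.1% of genes. The 15 S-phase genes had a median log2 ratio of 0.47, with 7 higher and 0 lower (3 and 1 relative to the median), from -0.43 for Gins2, a subunit of the replicative helicase, to 1.03 for Mcm5. Mcm5 was at 56.6 CPM in WT and 115 CPM in Tbx1neo2/neo2, a ratio of 2.04 (1.61 to 2.57), and at 52.3 CPM in Foxn11089/1089. Mcm2 and Mcm3 had ratios of 1.97 and 1.99 in Tbx1neo2/neo2, while Mcm4 of the same helicase ring was at 0.825 (0.643 to 1.05). Pcna, at 80.9, 78.3 and 55.7 CPM, and Tyms, at 175, 157 and 130 CPM, did not follow the Mcm genes. Rrm2 was at 77.0, 107 and 75.7 CPM.

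The 23 mitotic genes of epithelial cells had a median log2 ratio of 0.42 in Tbx1neo2/neo2, with 7 higher and 1 lower (4 and 1 relative to the median), a share of higher genes like the 30.8% of all genes. The highest was Bub1b, a kinase of the spindle checkpoint, at 2.47-fold (1.84 to 3.32), and the lowest was Ccnb2, at 0.664-fold (0.535 to 0.819). Top2a was at 250, 341 and 264 CPM and Mki67, the standard marker of cycling cells, at 122, 173 and 150 CPM. Cdk1 was at 261, 227 and 197 CPM, lowest in Foxn11089/1089. Cyclin B1 (Ccnb1) was at 81.6, 160 and 111 CPM, with ratios of 1.96 (1.61 to 2.39) and 1.36 (1.17 to 1.58).

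In epithelial cells of the Foxn11089/1089 library, 6 of 45 members were higher and 3 lower, beside 26.5% and 12.4% of 10825 genes. Relative to the all-gene median, 2 were higher and 10 lower, beside 18.5% and 18.3%, so the sense of the split turns with the centring. The median log2 ratio was -0.01 for the mitotic genes and -0.03 for the S-phase genes, against 0.18 for all genes. Ccnb2 was the lowest mitotic gene, at 0.582-fold (0.513 to 0.662), and Pcna the lowest S-phase gene, at 0.689-fold (0.584 to 0.814). Bub1b was again the highest mitotic gene, at 1.71-fold (1.36 to 2.17).

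In mesenchymal cells of the Tbx1neo2/neo2-labelled library, 17 of 42 counted members were higher and 3 lower, beside 30.8% and 10.4% of 7581 genes. Relative to the all-gene median the split was 10 and 4, beside 18.5% and 19.3%. The S-phase genes had a median log2 ratio of 0.72, with 7 of 13 higher and 1 lower (2 and 1 relative to the median), from -0.61 for Gins2 to 1.17 for Mcm5. Mcm5 was at 33.3, 74.6 and 49.8 CPM, Rrm2 at 35.5, 60.4 and 38.2 CPM, Pcna at 46.6, 47 and 36.3 CPM and Tyms at 82.0, 79.1 and 106 CPM. The mitotic genes had a median of 0.30, close to that of all genes, with 7 higher and 1 lower (5 and 2 relative to the median), from -0.63 for Kif23 to 1.22 for Cdc20. Cdc6, Cdc45 and Cdkn1a were too sparse to count here.

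In mesenchymal cells of the Foxn11089/1089 library, the mitotic genes mostly lay above WT. Their UMIs gather in the same cells, with 85 of 451 mitotic-high in WT and 301 of 1255 in Foxn11089/1089. The genes are thus no separate measures of a difference, and the interval of the share ratio (0.997 to 1.64) takes in 1. In all, 13 of 44 counted members were higher and 1 lower, beside 22.2% and 9.28% of 8470 genes, or 9 and 1 relative to the all-gene median, beside 15.5% and 14.5%. Of these, 11 of 23 mitotic genes were higher and 0 lower, with a median log2 ratio of 0.58 (8 and 0 relative to the median). The highest was Hmmr, which encodes a spindle-associated hyaluronan receptor, with 17 UMIs in 451 WT cells and 140 in 1255 Foxn11089/1089 cells, a ratio of 2.96 (1.78 to 5.22). Ccnb1 was at 32.2, 71.6 and 78.5 CPM, Top2a at 125, 197 and 203 CPM, Mki67 at 71.0, 101 and 116 CPM and Cdk1 at 121, 116 and 149 CPM. The lowest was Bub1, at a log2 ratio of -0.14. Of the 15 S-phase genes, 2 were higher and 0 lower, with a median of 0.28, the highest being Mcm3 at 0.87 and the lowest Pcna at -0.36.

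**Figure D3:**
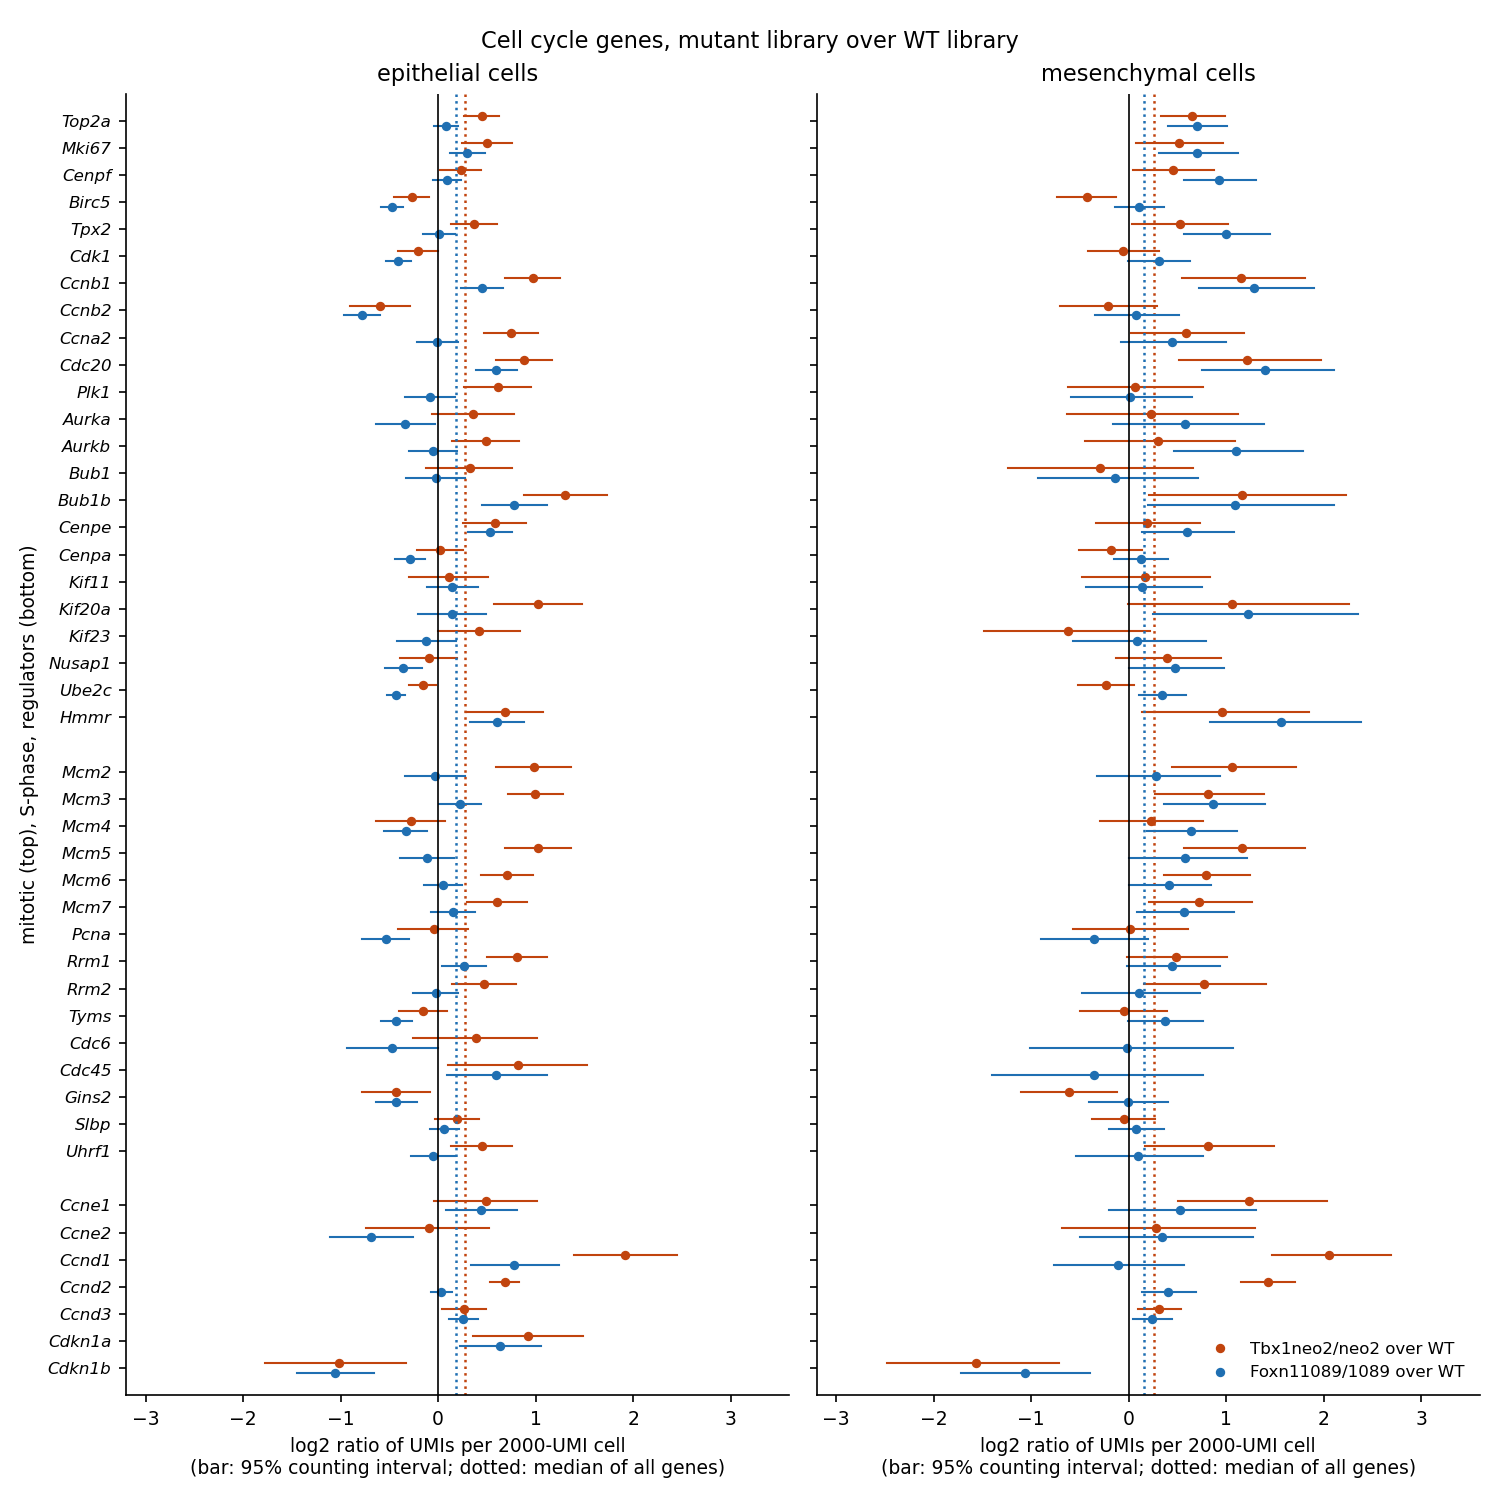
Log2 ratio of summed UMIs over WT in epithelial (left) and mesenchymal (right) cells for each counted member, in Tbx1neo2/neo2 (red) and Foxn11089/1089 (blue), with 95% counting intervals as lines and dotted lines at the median of all genes. Ccnd1 in Tbx1neo2/neo2 stands farthest to the right, at 1.92 and 2.06, Cdkn1b lies at -1.02 to -1.57 in all 4 comparisons, and the blue mitotic points of the right panel lie mostly right of 0.

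Endothelial cells had 7 countable members in the Tbx1neo2/neo2 comparison, of which 1 was higher and 3 lower, beside 27.9% and 26% of 1389 genes. The split relative to the all-gene median was the same 1 and 3, beside 28% and 25.9% of genes. Cdk1 was the lowest, with 18 UMIs in 38 WT cells, 16 in 86 Tbx1neo2/neo2 cells and 42 in 81 Foxn11089/1089 cells, a ratio of 0.393 for Tbx1neo2/neo2 (0.187 to 0.816). In the Foxn11089/1089 comparison 2 of 10 members were higher and 0 lower, beside 22.4% and 17.9% of 1265 genes. Relative to the median it was the same 2 and 0, beside 20.8% and 19.4%. Mcm3 was the highest, with 7 UMIs in WT and 40 in Foxn11089/1089, at 2.68-fold (1.19 to 7.09), and Slbp, the histone mRNA binding protein, the lowest, at 0.686-fold (0.321 to 1.51). Top2a had 12, 24 and 31 UMIs, Mki67 6, 19 and 13, Ccnb1 4, 7 and 13, Mcm5 4, 11 and 4, Pcna 7, 11 and 11, Rrm2 4, 11 and 12, and Tyms 14, 14 and 23, which is too few for most of these to be compared.

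In hematopoietic cells of the Tbx1neo2/neo2-labelled library, S-phase genes lay mostly above WT and mitotic genes on both sides of it. Of 37 counted members, 11 were higher and 4 lower, beside 22% and 16.8% of 3253 genes, or 10 and 6 relative to the all-gene median, beside 18.6% and 20.2%. S-phase genes had 6 of 14 higher and 0 lower, with a median log2 ratio of 0.47 (5 and 1 relative to the median). Mitotic genes had 4 of 20 higher and 4 lower, with a median of -0.16 (4 and 5 relative to the median). Mcm5 was at 84.3, 190 and 86.0 CPM, Rrm1 at 74.5, 178 and 118 CPM and Rrm2 at 116, 174 and 70.1 CPM. Tyms, at 147, 99.2 and 105 CPM, was the lowest S-phase gene in Tbx1neo2/neo2, at a log2 ratio of -0.57. Pcna was at 92.2, 128 and 76.4 CPM.

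The mitotic genes of hematopoietic cells ranged from Cenpf, a kinetochore protein, with 52 UMIs in WT and 9 in Tbx1neo2/neo2 (0.365-fold, 0.158 to 0.747), to Hmmr, with 16 and 20 UMIs (2.63-fold, 1.30 to 5.44). Top2a was at 286, 331 and 280 CPM, Mki67 at 133, 182 and 89.2 CPM, Cdk1 at 145, 124 and 140 CPM and Ccnb1 at 64.7, 70.2 and 51.0 CPM. In Foxn11089/1089, 6 of 37 members were higher and 6 lower, beside 22.2% and 18.8% of 3442 genes. Relative to the all-gene median the split was 6 and 7, beside 21.5% and 20%. The lowest was Aurka, with 36 UMIs in WT and 7 in Foxn11089/1089 (0.316-fold, 0.119 to 0.720), and the highest Ccnd2, at 2.15-fold (1.38 to 3.39).

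The B cyclins stood out after the values were seen, because in epithelial and mesenchymal cells of both mutant libraries Ccnb1 lay above its WT level and Ccnb2 below or near it. The number of Ccnb1 UMIs per Ccnb2 UMI was 0.564 (0.478 to 0.665) in WT epithelial cells, 1.67 (1.31 to 2.12) in Tbx1neo2/neo2 and 1.32 (1.18 to 1.47) in Foxn11089/1089. In mesenchymal cells it was 0.460 (0.286 to 0.725), 1.19 (0.873 to 1.61) and 1.06 (0.867 to 1.31). In hematopoietic cells it was 0.393 (0.254 to 0.594), 0.810 (0.401 to 1.61) and 0.571 (0.289 to 1.09). The WT value was the lowest in each of these classes, and the endothelial cells had 4 UMIs of each gene in WT. Both libraries had been set against the same WT library, so the pattern rests on that 1 library. The Ccnb2 stretch printed above holds 2 CHR elements and 3 CCAAT boxes, and a link between these letters and the pattern was not tested.

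Among the regulators, each D cyclin was highest in its own class in 3 of 3 libraries. Ccnd1 was highest in endothelial cells, at 224, 174 and 593 CPM, against 18.3, 69.0 and 31.3 CPM in epithelial, 31, 129 and 28.7 CPM in mesenchymal and 13.7, 41.3 and 44.6 CPM in hematopoietic cells. In Tbx1neo2/neo2 the endothelial and mesenchymal levels of Ccnd1 did not differ beyond counting error (mesenchymal over endothelial 0.740, 0.50 to 1.13). Ccnd2 was highest in epithelial cells, at 328, 527 and 336 CPM, against 156, 419 and 207 CPM in mesenchymal, 92.1, 285 and 98.8 CPM in endothelial and 72.5, 169 and 156 CPM in hematopoietic cells. Ccnd3 was highest in mesenchymal cells, at 287, 357 and 339 CPM, against 171, 205 and 204 CPM in epithelial, 171, 174 and 173 CPM in endothelial and 129, 178 and 172 CPM in hematopoietic cells. The leading class of each D cyclin was the same with classes called from marker lists and with sums of all UMIs.

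Cdkn1a was highest in hematopoietic cells, at 72.5, 90.9 and 73.2 CPM. It was at 22.2, 42.1 and 34.3 CPM in epithelial cells, had 3, 5 and 4 UMIs in all mesenchymal cells of the 3 libraries and 0, 1 and 1 in the endothelial ones. Cdkn1b had no stable leading class, at 35.9, 17.7 and 17.3 CPM in epithelial, 39.9, 13.4 and 19.1 CPM in mesenchymal, 26.3, 23.3 and 24.7 CPM in endothelial and 37.3, 16.5 and 25.5 CPM in hematopoietic cells. The E cyclins had no stable leading class either. Ccne1 was at 29.9, 42.1 and 40.5 CPM in epithelial, 22.2, 52.2 and 31.9 CPM in mesenchymal, 26.3, 23.3 and 18.5 CPM in endothelial and 25.5, 24.8 and 9.55 CPM in hematopoietic cells. Ccne2 was at 27.8, 26.1 and 17.3 CPM in epithelial and 16.6, 20.1 and 21.1 CPM in mesenchymal cells, with 0 to 6 UMIs in each library of the other classes.

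**Figure D4:**
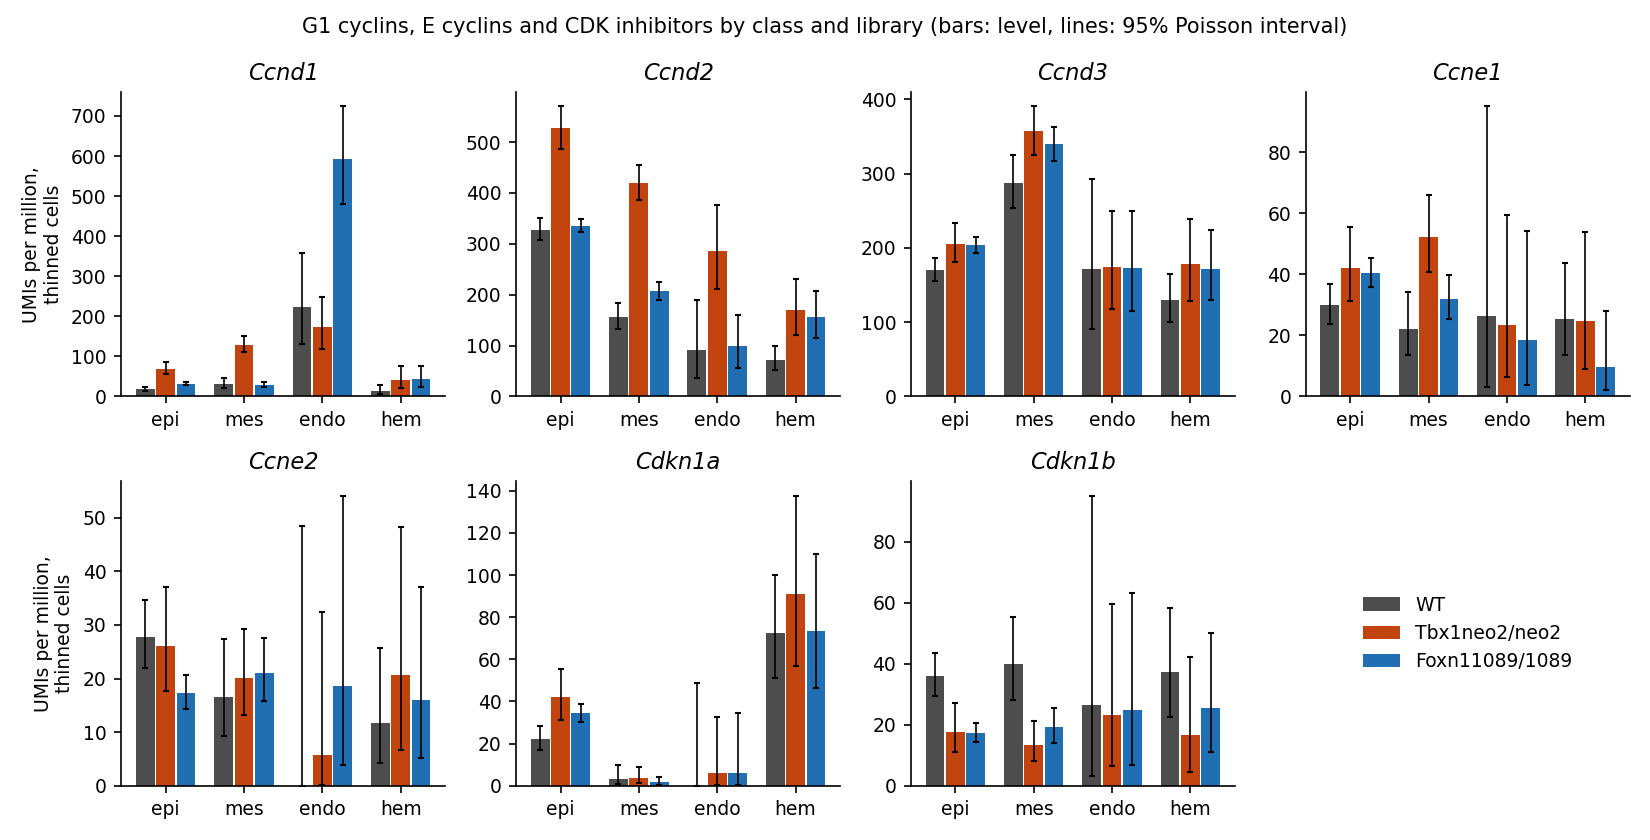
Level of the 7 regulators in CPM of the thinned cells (bars, with 95% Poisson intervals) in epithelial (epi), mesenchymal (mes), endothelial (endo) and hematopoietic (hem) cells of WT (grey), Tbx1neo2/neo2 (red) and Foxn11089/1089 (blue). Ccnd1 peaks in endothelial, Ccnd2 in epithelial, Ccnd3 in mesenchymal and Cdkn1a in hematopoietic cells, and the WT bar of Cdkn1b is the highest in each class.

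By genotype, the member farthest from WT was a regulator in epithelial cells of both mutants and in mesenchymal cells of Tbx1neo2/neo2. Cyclin D1 (Ccnd1, chromosome 7, 144929931 to 144939925, GRCm38) had 52 UMIs in 1422 WT and 82 in 594 Tbx1neo2/neo2 epithelial cells, a ratio of 3.78 (2.64 to 5.45). In mesenchymal cells it had 28 and 173 UMIs, a ratio of 4.16 (2.78 to 6.44). The Foxn11089/1089 ratios were 1.71 (1.26 to 2.36) in epithelial and 0.924 (0.590 to 1.49) in mesenchymal cells. Endothelial cells differed, with 17, 30 and 96 UMIs of Ccnd1. Their ratios were 0.780 (0.416 to 1.51) in Tbx1neo2/neo2 and 2.65 (1.57 to 4.73) in Foxn11089/1089. Hematopoietic cells had 7, 10 and 14 UMIs, under the minimum for a ratio. Over 12 alternatives the log2 ratio for Tbx1neo2/neo2 ran from 1.16 to 2.48 in epithelial and from 1.80 to 2.61 in mesenchymal cells, above the all-gene medians in each. In cells with no class marker Ccnd1 was at 25.5, 147 and 47.6 CPM, so in those cells it was higher in both mutants, by 2.53 and 0.90 on the log2 scale.

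Cyclin D2 (Ccnd2, chromosome 6, 127125162 to 127152193) was also higher in the Tbx1neo2/neo2-labelled library. The ratio was 1.61 (1.45 to 1.78) in epithelial, 2.68 (2.23 to 3.25) in mesenchymal, 3.09 (1.39 to 8.09) in endothelial and 2.34 (1.46 to 3.75) in hematopoietic cells, where the log2 ratio ran from 0.32 to 1.26 over the alternatives. In Foxn11089/1089 the Ccnd2 ratio was 1.02 (0.948 to 1.11) in epithelial and 1.33 (1.10 to 1.61) in mesenchymal cells. It was 2.15 (1.38 to 3.39) in hematopoietic cells, near that of Tbx1neo2/neo2, and both rest on the same 37 WT UMIs. The endothelial cells, with 7 UMIs in WT and 16 in Foxn11089/1089, were under the minimum for a ratio. Ccnd3 had ratios of 1.18 to 1.24 in epithelial and mesenchymal cells of both mutants, near the all-gene median, and its direction turned in Tbx1neo2/neo2 epithelial cells relative to that median and in Foxn11089/1089 mesenchymal cells under 2 alternatives. Ccne1 was higher in mesenchymal cells of Tbx1neo2/neo2, with 20 UMIs in WT and 70 there (2.36-fold, 1.42 to 4.09), and its log2 ratio ran from 0.28 to 1.23 over 11 alternatives. Cdkn1a was 1.90-fold (1.28 to 2.80) and 1.55-fold (1.17 to 2.08) in epithelial cells of the mutants.

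Cdkn1b (chromosome 6, 134920401 to 134925513), which encodes p27, was the member lowest in relation to WT in epithelial and mesenchymal cells of both mutants. It had 102 UMIs in WT epithelial cells, 21 in Tbx1neo2/neo2 and 122 in the 3529 Foxn11089/1089 cells, with ratios of 0.493 (0.293 to 0.794) and 0.482 (0.367 to 0.633). In mesenchymal cells it had 36, 18 and 48 UMIs, with ratios of 0.337 (0.180 to 0.608) and 0.479 (0.305 to 0.760). Every alternative kept the log2 ratio below 0, from -1.33 to -0.93 and from -1.34 to -0.73 in epithelial cells and from -1.83 to -0.67 and from -1.22 to -0.58 in mesenchymal cells, in the order Tbx1neo2/neo2, Foxn11089/1089. Cells with no class marker gave 32.7, 14.5 and 18.7 CPM. Hematopoietic cells had 19, 4 and 8 UMIs, under the minimum for a ratio. Both comparisons rest on the 1 WT library.

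The regulators were then read against the state of the cell, as mitotic-high cells, cells high for S phase only, and cells with no mitotic UMI and fewer than 5 S-phase UMIs. In epithelial cells both E cyclins were highest in the cells high for S phase only. Ccne2 was at 21.2, 64.3 and 13.2 CPM in WT, 9.01, 72.9 and 17.5 CPM in Tbx1neo2/neo2 and 6.80, 63.1 and 10.8 CPM in Foxn11089/1089, in the order neither, S phase only, mitotic. Ccne1 was at 9.62, 67.3 and 17.9 CPM in WT, 18, 104 and 33.2 CPM in Tbx1neo2/neo2 and 18.5, 113 and 42.7 CPM in Foxn11089/1089. In mesenchymal cells Ccne2 was at 5.81, 71.4 and 39.9 CPM in Foxn11089/1089 and 11.2, 77.8 and 35.2 CPM in Tbx1neo2/neo2, while the 20 WT cells high for S phase only had 1 UMI of it (25 CPM, against 47.1 CPM in mitotic-high cells).

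Cdkn1b was at higher levels in mitotic-high epithelial and mesenchymal cells than in cells with no mitotic UMI and fewer than 5 S-phase UMIs. In epithelial cells the ratio was 2.32 (1.25 to 4.71) in WT, 2.07 (0.593 to 11.1) in Tbx1neo2/neo2 and 1.95 (1.24 to 3.17) in Foxn11089/1089. In mesenchymal cells it was 2.41 (1.07 to 5.34), 3.25 (0.936 to 11.7) and 3.06 (1.60 to 6.01). The mitotic-high cells were also the deeper ones before thinning. The lower Cdkn1b of the mutant libraries was present within mitotic-high epithelial cells, at 53.6 CPM in WT (41.7 to 67.8) against 28.0 (16.0 to 45.4) and 25.6 (19.9 to 32.4) CPM. Ccnd2 went the other way in mesenchymal cells, with mitotic-high cells at 0.306 (0.142 to 0.587), 0.451 (0.334 to 0.600) and 0.855 (0.677 to 1.07) times the cells with no mitotic UMI.

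**Figure D5:**
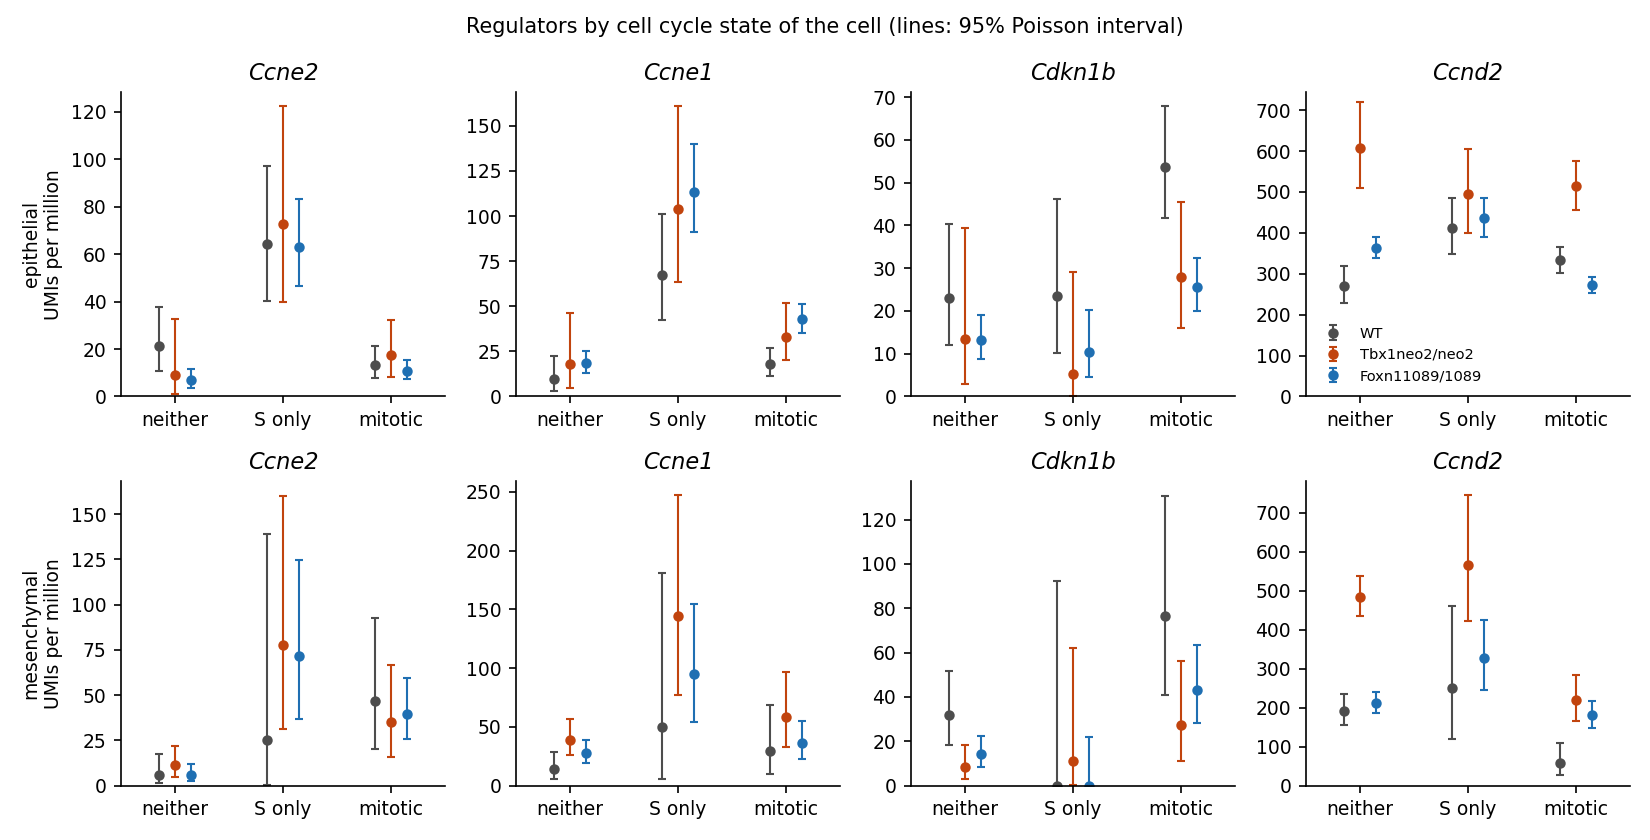
Levels of Ccne2, Ccne1, Cdkn1b and Ccnd2 in CPM (points, with 95% Poisson intervals) in epithelial (top) and mesenchymal (bottom) cells with no mitotic UMI and fewer than 5 S-phase UMIs (neither), high for S phase only, or mitotic-high, in WT (grey), Tbx1neo2/neo2 (red) and Foxn11089/1089 (blue). The E cyclins peak in the middle column in epithelial cells, at 63.1 to 72.9 for Ccne2, and Cdkn1b is higher in the mitotic column than in the first in each library.

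Further genes of the pathway, listed by function with earlier results of these data known, were read in the same way. Other mitotic genes (35 listed, 34 of them in the files, such as Prc1, Ndc80, Mad2l1 and Smc4) were close to the members in mesenchymal cells of Foxn11089/1089. Of 31 counted, 18 were higher and 0 lower beside 22.2% and 9.28% of all genes, with a median log2 ratio of 0.66. Relative to the all-gene median the split was 13 and 0, beside 15.5% and 14.5%. These genes were read in the same cells as the members and are no separate support. There the highest was Dlgap5, a spindle protein, at 1.52, and the lowest Kif22, a chromosome motor, at -0.28. In epithelial cells of Foxn11089/1089 3 of 34 were higher and 4 lower beside 26.5% and 12.4%, with a median of 0.06, from -0.79 for Cdc25c to 0.90 for Ncapg. In Tbx1neo2/neo2 the medians were 0.43 in epithelial cells (10 of 34 higher, 1 lower, from Cdc25c at -1.06 to Ncapg at 1.16) and 0.47 in mesenchymal cells (12 of 28 higher, 0 lower, from Ckap2l at -0.47 to Kif2c at 1.51). All genes had 30.8% higher and 10.9% lower in those epithelial and 30.8% and 10.4% in those mesenchymal cells, so the epithelial share of higher genes was close to that of all genes. In hematopoietic cells 1 of 16 was higher and 2 lower in Tbx1neo2/neo2, beside 22% and 16.8%, and 0 of 16 higher and 2 lower in Foxn11089/1089, beside 22.2% and 18.8%.

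Other replication genes (37 listed, such as Lig1, Pola1, Rfc4 and Dut) lay below the S-phase members in Tbx1neo2/neo2. There their median log2 ratio was 0.16 in epithelial cells, with 3 of 36 higher and 1 lower beside 30.8% and 10.9% of all genes, from Orc6 at -0.66 to Rpa1 at 1.2. It was 0.09 in mesenchymal cells, with 7 of 33 higher and 1 lower beside 30.8% and 10.4%, and Pola2 the lowest, at -1.36. Both medians lie below those of all genes, while the S-phase members lay above. In hematopoietic cells of Tbx1neo2/neo2 the median was 0.05, against 0.08 for all genes and 0.47 for the S-phase members. There 2 of 24 were higher and 1 lower beside 22% and 16.8%, from Chaf1a at -1.16 to Nasp at 0.67. In Foxn11089/1089 epithelial cells the median was -0.24, with 1 of 37 higher and 7 lower beside 26.5% and 12.4% (0 and 14 relative to the all-gene median, beside 18.5% and 18.3%), from Pola2, a subunit of the primase complex, at -0.85 to Orc1 at 0.74. In hematopoietic cells of Foxn11089/1089 it was -0.44, with 0 of 25 higher and 7 lower beside 22.2% and 18.8%, from Chaf1a at -1.02 to Rpa2 at 0.30, and in mesenchymal cells 0.23, near the 0.28 of the S-phase members there, with 6 of 34 higher and 2 lower beside 22.2% and 9.28%, from Pold1 at -0.98 to Clspn at 1.22.

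Of the E2F and RB genes, 3 of 12 were higher and 2 lower in Tbx1neo2/neo2 epithelial cells, from Tfdp1, a partner of the E2F factors, at a log2 ratio of -2.23 to E2f5 at 1.11. In Foxn11089/1089 epithelial cells 0 of 13 were higher and 3 lower, with Tfdp1 again the lowest, at -0.92. In mesenchymal cells 3 of 6 were higher and 1 lower in Tbx1neo2/neo2, and 4 of 11 higher and 0 lower in Foxn11089/1089, with E2f6 the highest in both. All genes had 30.8%, 26.5%, 30.8% and 22.2% higher in these 4 comparisons, and so few listed genes give no result against that. Of the other kinases and inhibitors of the cycle, Cdk2 was the highest in Tbx1neo2/neo2, at 1.49 in epithelial and 1.5 in mesenchymal cells, and in Foxn11089/1089 mesenchymal cells, at 1.64. Cdk6, a partner of the D cyclins, was the lowest in epithelial cells of both mutants, at -0.79 and -1.25. These kinases and inhibitors had 2 of 5 and 3 of 6 higher and 1 lower each in epithelial cells, and 1 of 5 and 2 of 6 higher and 1 lower each in mesenchymal cells, which are too few to read against the same shares of all genes. In hematopoietic cells Cdkn1c, which encodes the inhibitor p57, was the highest, at 2.70 and 2.20. Markers of the mesenchymal list were present in 2.75%, 15.7% and 11.5% of these cells, and their part in the Cdkn1c values was not tested. Endothelial cells had at most 5 countable genes of any of these lists.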

How the data were processed

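Single-cell RNA of E13 to E13.5 thymic lobes was measured in 3 droplet libraries, 1 per genotype (WT, Tbx1neo2/neo2, Foxn11089/1089), grouped by the genotype label. The authors deposited raw UMI counts per gene and called cell barcode, without normalization. According to the submitters' processing notes they were made with Cell Ranger 3.0.0 on mm10, and Seurat was used afterwards.

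Barcodes had to have 200 genes or more and less than 20% of UMIs from mitochondrial genes, and 2000 UMIs were drawn at random from each, with shallower cells left out. A class needed at least 1 thinned UMI of exactly 1 of its 4 markers. Cells high for a group had at least 5 of its UMIs. Summed UMIs per class were compared as ratios for genes with at least 30 UMIs over both libraries, with a fold of 1.5 as the call. The 329, 265 and 1239 barcodes with the highest Scrublet scores (scanpy 1.11.5, 0.8% per 1000 barcodes) stayed in and were left out in an alternative. No test was run, since cells of 1 library are not replicates. The 95% intervals were exact. The floor of a count of 0 is 3 counts. The genes named were Top2a, Mki67, Cdk1, Ccnb1, Pcna, Mcm5, Rrm2, Tyms and the 7 regulators, plus the members with the highest and lowest ratio per class and comparison. A few others were named after their values were seen (the B cyclins, Bub1b, Mcm2 to Mcm4, Rrm1 and the extremes of each group). The members and lists were chosen with earlier results of these data known. The alternatives changed the depth, the seed, the class rule, the mitochondrial limit, doublets, globin-rich cells, the genes counted, the minimum of UMIs, the fold, the centring and the thinning itself. No column of another series was present among the files (0 unused). The intervals and calls were tested on simulated data. All simulated cells of a group shared the same profile, so that test did not cover UMIs that gather in few cells. Python 3.11.15, numpy 2.4.6, scipy 1.17.1, pandas 2.3.3 and matplotlib 3.10.9 were used.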

Additional observations from a re-analysis of the deposited data

Results flagged for a closer look

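The share of mitotic-high cells in the Foxn11089/1089 library moved in opposite directions in 2 classes that come from the same pair of libraries, at 0.842 times WT in epithelial cells and 1.27 times WT in mesenchymal cells. It kept each direction in all 12 alternatives, from 0.803 to 0.927 in epithelial and from 1.09 to 1.34 in mesenchymal cells. The interval of the mesenchymal ratio (0.997 to 1.64) takes in 1. The difference between the classes was not tested, since there is 1 library per genotype.

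Cells that held no class marker after thinning, with under 20% globin UMIs, were in no comparison between classes, yet their shares lay far above the globin-rich reference. Mitotic-high cells were 34.0%, 28.8% and 29.9% of 2799, 2100 and 3025 such cells in WT, Tbx1neo2/neo2 and Foxn11089/1089, and S-phase-high cells 21.2%, 24.9% and 19.3%.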

How the results depend on the processing

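With 1 library per genotype no library could be left out. No paired analysis was possible because there is 1 library per genotype. The endothelial and hematopoietic classes held 38 to 255 cells per library, which limits their precision at 2000 UMIs per cell. The mean over 20 thinnings was chosen after seeing the data. Of 192 share ratios 177 stayed within the counting interval of the reported value and 15 left it. Of 192 group levels 134 stayed within it, and of 1042 single gene values 943. A value is called reversed only where the interval of the reported value excludes equality with WT and the alternative lies on the other side, which held for 0 share ratios, 11 group levels and 4 gene values. Without that condition the direction turned in 38 share ratios (9 of 16 results), 22 group levels and 118 gene values (39 of 90 genes and comparisons). The cause of each value below was not tested.

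The S-phase share ratios that moved were, thinned to 4000 UMIs, 2.30 and 2.07 in mesenchymal and 0.346 and 0.732 in endothelial cells (Tbx1neo2/neo2, Foxn11089/1089). With a minimum of 8 UMIs they were 2.67 and 1.34 in epithelial and 2.92 and 2.40 in mesenchymal cells, and 3.40 in Tbx1neo2/neo2 hematopoietic cells. For Tbx1neo2/neo2 they were 1.26 in epithelial and 1.12 in hematopoietic cells with a minimum of 3 UMIs, and 1.32 and 1.31 without mitochondrial, ribosomal protein and globin genes. The mitotic share ratio was 0.764 in Tbx1neo2/neo2 mesenchymal cells with another seed and 0.927 in Foxn11089/1089 epithelial cells with marker lists.

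The log2 ratio of the mitotic group level in Tbx1neo2/neo2 mesenchymal cells (0.19) reversed to -0.11 at 4000 UMIs, -0.24 with another seed, -0.051 with classes from full counts, -0.071 from marker lists, -0.017 under 10% mitochondrial UMIs and -0.072 when centred on the median of all genes. It was 0.30 with sums of all UMIs and 0.012 over 20 thinnings. In Foxn11089/1089 mesenchymal cells (0.51) it was 0.41 at 4000 UMIs, 0.38 with another seed, 0.37 from full counts, 0.34 from marker lists, 0.38 under 10% mitochondrial UMIs, 0.36 without the 3 kinds of genes, 0.69 with all UMIs, 0.35 centred and 0.41 over 20 thinnings. In Tbx1neo2/neo2 epithelial cells (0.21) it was 0.043 at 1000 UMIs, 0.31 from marker lists, 0.27 under 10% mitochondrial UMIs and -0.068 (reversed) centred. In Foxn11089/1089 epithelial cells (-0.11) it was -0.20 at 1000 UMIs, -0.023 from full counts, 0.058 (reversed) from marker lists, -0.065 under 10% mitochondrial UMIs, -0.066 with all UMIs and -0.29 centred.

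In Tbx1neo2/neo2 endothelial cells (-0.53) the mitotic level was -1.04 at 1000 UMIs, -1.28 with another seed, -1.12 without likely doublets and -0.034 with all UMIs, and in Foxn11089/1089 ones (0.31) 0.63 from marker lists. In Foxn11089/1089 hematopoietic cells (-0.20) it was 0.041 at 1000 UMIs, 0.16 under 10% mitochondrial UMIs and 0.084 with all UMIs (3 reversals), and -0.024 at 4000 UMIs, -0.37 with another seed, -0.017 from marker lists and -0.040 without the 3 kinds of genes. In Tbx1neo2/neo2 hematopoietic cells (-0.03) it was 0.19 under 10% mitochondrial UMIs and 0.17 without likely doublets.

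The S-phase level in Tbx1neo2/neo2 epithelial cells (0.39) was 0.26 at 1000 UMIs, 0.30 with all UMIs and 0.11 centred, and the centred values were -0.27 in Foxn11089/1089 epithelial cells and 0.11 and 0.14 in mesenchymal cells. In Tbx1neo2/neo2 endothelial cells (-0.29) it was -0.87 at 4000 UMIs, -0.98 with another seed, -0.72 without likely doublets, -1.01 without the 3 kinds of genes and -0.70 over 20 thinnings. In Foxn11089/1089 endothelial cells (0.37) it was -0.058 at 4000 UMIs, -0.085 with another seed and -0.012 under 10% mitochondrial UMIs. In hematopoietic cells it was 0.044 at 1000 UMIs and 0.088 with all UMIs in Foxn11089/1089, and 0.23 under 10% mitochondrial UMIs in Tbx1neo2/neo2.

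Members past the fold in endothelial cells numbered 12 and 13 from 10 UMIs (5 higher and 7 lower of 26, 12 and 1 of 31). They numbered 23 and 18 from 1 UMI in each library (6 higher and 17 lower of 41, 14 and 4 of 41). With all UMIs they numbered 10 and 19 (4 higher and 6 lower of 44, 18 and 1 of 44). Past 2-fold there were 5 and 1 in epithelial cells (4 higher and 1 lower of 45, 0 and 1 of 45). There were 10 and 7 in mesenchymal cells (9 and 1 of 42, 6 and 1 of 44). In hematopoietic cells there were 6 and 3 (5 and 1 of 37, 2 and 1 of 37). The share of all genes was not taken at these settings, so these counts cannot be set against it. Centred, there were 12 in Tbx1neo2/neo2 epithelial cells (9 higher and 3 lower of 45, beside 16.3% and 20.1% of all genes). Epithelial cells led in Ccne1 in 0 libraries with marker lists and 1 with all UMIs, and mesenchymal cells led in Cdkn1b in 0 with either. The 4 gene values reversed by that rule were Mki67 in Foxn11089/1089 epithelial cells to -0.077 at 1000 UMIs, Ccnd3 in Foxn11089/1089 mesenchymal cells to -0.082 under 10% mitochondrial UMIs and -0.034 with all UMIs, and Ccnd3 in Tbx1neo2/neo2 epithelial cells to -0.0098 centred.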

Other observations

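The cells without a class marker, the largest population of the WT and Tbx1neo2/neo2-labelled libraries after thinning, had some values like those of the epithelial and mesenchymal cells and others that differed. The number of Ccnb1 UMIs per Ccnb2 UMI was 0.541 (0.472 to 0.618) in WT, 1.31 (1.12 to 1.54) in Tbx1neo2/neo2 and 1.14 (0.999 to 1.29) in Foxn11089/1089. Ccnd2 was at 180, 370 and 256 CPM. Cdkn1a was at 36.8, 33.1 and 19.8 CPM, a log2 ratio of -0.15 in Tbx1neo2/neo2 and -0.89 in Foxn11089/1089, so it did not have the higher level of the mutant epithelial cells. These cells come from the same libraries as the classes and are no independent sample of a genotype.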
